A study of Danio rerio with 16 samples.

Results

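Stab injury in wild type muscle was followed by RNA sequencing of 4 injured and 4 non-injured adult zebrafish, which make up 8 of the 16 libraries of the series. The 8 were chosen by their labels alone (wild type genotype, injured or non-injured), and no measured value entered the choice. Injured fish were AB (Oregon) wild type adults that had a needle pushed into the dorsal muscle of the tail and pulled out again under tricaine, an anaesthetic, and recovered for 5 days before the tissue on either side of the needle track was cut out. Non-injured fish were of the same wild type and gave the matching piece of tail, and the labels do not say that they were anaesthetised. Neither group is labelled with a transgene or a mutation, and the labels state neither sex nor age in weeks. The other 8 libraries were 4 from injured and 4 from non-injured fish of the CRISPR-made ankrd1a line bns502. They shared the filter on low counts, the scaling between libraries and the estimate of spread, and entered a single comparison at the end. A gene at low counts in wild type fish could therefore be tested through its counts in mutants. Each library held muscle RNA of 1 fish, so wounded and intact fibres, skin, vessels, nerve and immigrant cells were read together, and fewer cells of a type cannot be told apart from less RNA per cell.

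Adult skeletal muscle repairs a wound by activating satellite cells, the Pax7-expressing stem cells beneath the fibre's basement membrane. These divide as myoblasts, switch on myogenin, fuse into new fibres through the membrane proteins myomaker and myomixer, and make developmental isoforms of the contractile proteins before the adult ones. Macrophages clear debris, fibroblasts lay down matrix, and new fibres are innervated late. Ankrd1, the gene after which the series is named, codes for an ankyrin repeat protein of the sarcomere whose transcript is known to climb in stretched or damaged striated muscle.

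Total estimated counts per wild type library lay between 18011139 and 25231102. Non-injured fish 1 had the lowest total, and the others held 22006028 or more. Log2 CPM values correlated across genes with r of 0.934 to 0.963 among injured fish, 0.918 to 0.948 among non-injured fish and 0.876 to 0.932 between the groups, and genes are not independent replicates. CPM here is the count scaled to a common library total after TMM scaling (trimmed mean of M values, which sets the bulk of genes equal between libraries). It is not corrected for gene length, so levels are compared between fish and not between genes. The TMM factors of fish 1 to 4 were 1.14, 1.27, 0.886 and 0.997 in injured fish, against 0.937, 0.678, 0.768 and 0.954 in non-injured fish. The first principal component held 39.3% of the variance and placed injured fish at 66.6, 62.0, 45.9 and 20.2 and non-injured fish at -49.5, -42.3, -32.0 and -70.8, so that injured fish 4 lay nearest to the non-injured ones. Of 16514 genes tested with edgeR's quasi-likelihood test, 3927 (23.8%) passed an adjusted p of 0.05. In injured fish 1956 genes (11.8%) rose and 1971 (11.9%) fell. Rises were larger than falls, with 1069 rises and 590 falls of more than 2-fold and 356 rises and 77 falls of more than 4-fold. Scaled by library size alone, all genes had a median log2 fold change of 0.34 in place of -0.03, and 3673 genes were called higher and 537 lower. Directions are therefore relative to the median gene. Without injured fish 2 the count of falls was 1189, and without injured fish 1 it was 1251. Counts of list members below are to be read against these shares of all genes tested, 11.8% higher and 11.9% lower. Of the 3927 called genes 2916 had no overlap between the groups, 1573 rises and 1343 falls. A lack of overlap in a called gene named below is therefore common and not by itself a result about that gene. Where a list below has no call in one direction, that direction is left out of its sentence and taken up near the end. All p-values below are Benjamini-Hochberg adjusted values from edgeR unless the alternative test DESeq2 is named, and fold changes are log2 of injured over non-injured.

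The ANKRD1 gene ENSDARG00000075263 had the second smallest p of all genes. It stood at 148, 151, 186 and 180 CPM in injured fish, against 4.27, 1.77, 2.99 and 5.08 CPM in non-injured fish. The groups were far apart, and injured fish 4, which lay nearest to non-injured fish on the first principal component, was at the top with injured fish 3. Its log2 fold change was 5.55 (SE 0.28, adjusted p = 1.8e-08). Its namesake, ANKRD1 ENSDARG00000076192, was at very low counts, with 76 counts over the injured fish and 3 counts over the non-injured fish, a ratio of 18.9 (exact 95% interval 6.21 to 93.5, counting error only; adjusted p = 0.0024). The table of symbols does not say which of the genes is ankrd1a.

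**Figure D1:**
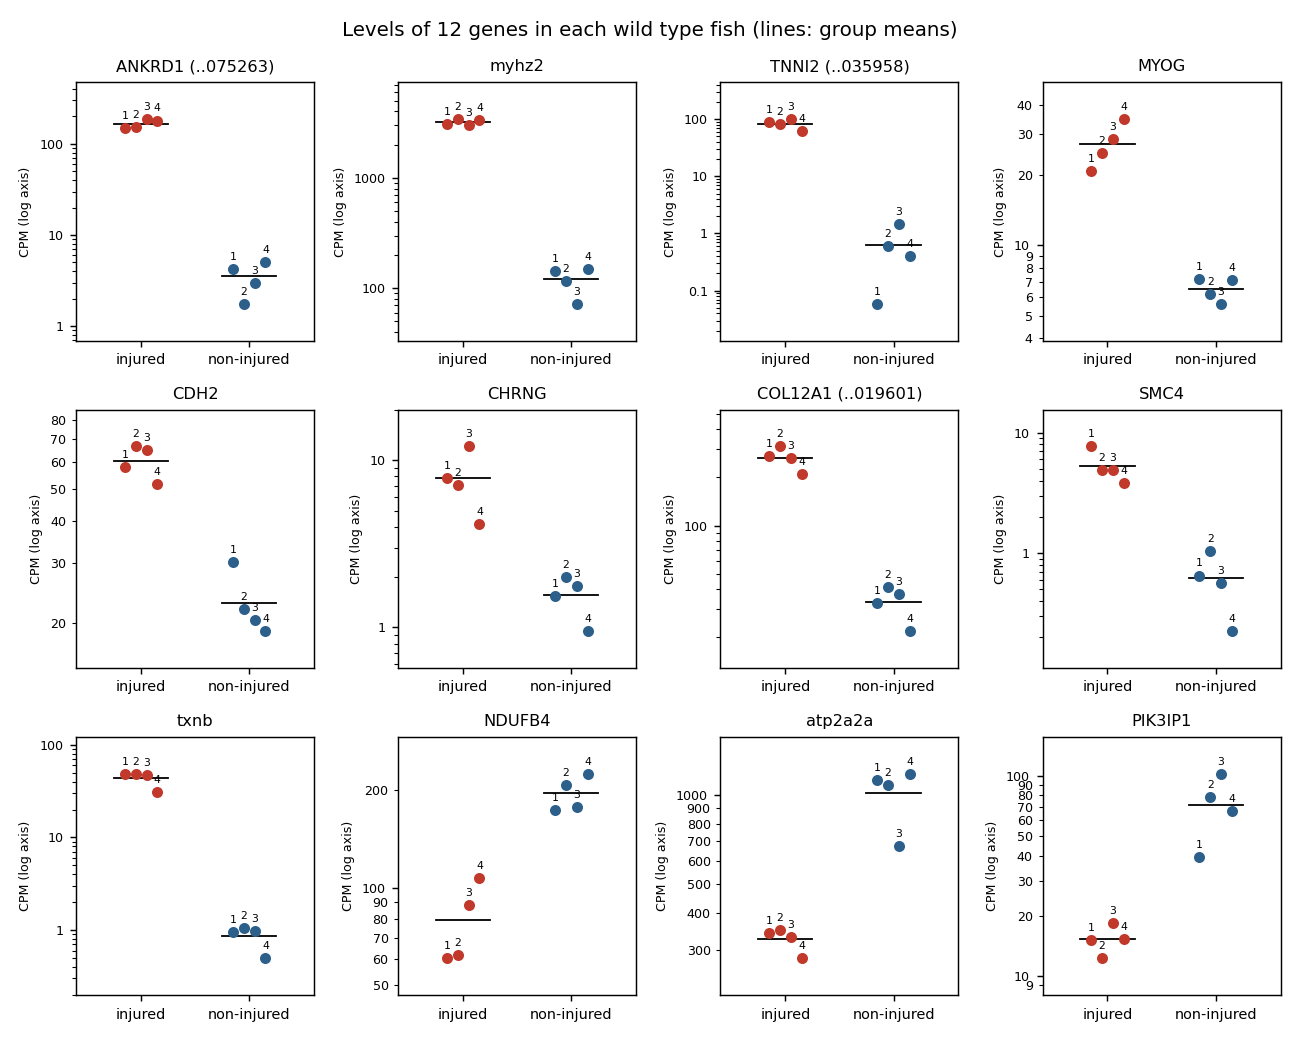
Level in CPM after TMM scaling (log axis) of 12 genes in the 4 injured and the 4 non-injured wild type fish, with the fish number beside each point and a line at the group mean. In none of the 12 do the groups overlap, which was a condition of choice for those among the smallest-p rises and falls described below. ANKRD1 averages 166 CPM in injured fish and 3.53 CPM in non-injured fish, and atp2a2a 327 CPM and 1020 CPM.

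Among well expressed genes (mean log2 CPM of at least 3), the 12 rises with the smallest p were ANKRD1 (ENSDARG00000075263), the fast myosin myhz2, the cartilage intermediate layer protein CILP, brain creatine kinase CKB (ENSDARG00000069752), the collagens COL12A1 (ENSDARG00000019601), col11a1b and col16a1, the growth factor midkine MDK (ENSDARG00000036036), the tubulin tuba1b, the elastic fibre protein EFEMP2 (ENSDARG00000094324), the laminin chain LAMB1 (ENSDARG00000101209) and the vault particle protein MVP. CILP stood at 296, 280, 263 and 237 CPM in injured fish, against 71.1, 76.8, 69.3 and 63.4 CPM in non-injured fish (1.94, SE 0.12, adjusted p = 1e-07). Midkine, MDK, stood at 217, 212, 162 and 81.5 CPM in injured fish, against 5.58, 7.68, 6.4 and 3.63 CPM in non-injured fish (4.86, SE 0.35). Injured fish 4 was the lowest of the injured for both. Only genes without overlap between the groups could enter these 12 rises and the 12 falls below, so their separation is not a result.

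The 12 falls with the smallest p were MAPRE3 (ENSDARG00000102878; microtubule end binding, -1.24, SE 0.11), MSL1 (-1.75), ppfibp2a (-1.79), the endothelial lectin clec14a (-1.15), the glutathione transferase gstr (-1.58), CFAP298 (-1.11), the muscle phosphatase DUSP13B (-1.52), the retinol carrier RBP4 (-1.43), the oxygen-sensing prolyl hydroxylase EGLN1 (ENSDARG00000004632; -1.17), the mitochondrial ribosome protein MRPS35 (-1.17), the troponin I gene tnni4b.1 (-1.76) and the slow muscle calcium pump atp2a2a. The last stood at 342, 350, 333 and 282 CPM in injured fish, against 1120, 1080, 674 and 1180 CPM in non-injured fish (-1.64, SE 0.21, adjusted p = 9.5e-05). Each of these 24 genes kept its call in the 8 fits that left out 1 wild type fish, which their choice by p in the same fish made likely.

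Contractile genes of fast fibres divided by isoform. Of 45 tested fast and pan-muscle sarcomere genes 13 rose and 3 fell, with a median of 0.04. The falls, TPM2, myoz1b and tcap, numbered 1 without injured fish 1 or injured fish 2 and 0 with scaling by library size alone. With that scaling 17 rose. A gene for fast troponin T, TNNT3 ENSDARG00000030270, stood at 50, 69.1, 41.7 and 33.7 CPM in injured fish, against 0 counts in each of the 4 non-injured fish, at least 1240-fold higher against a floor of 3 counts over the group. Its paralog ENSDARG00000068457 averaged 13000 ± 2500 CPM in injured fish and 15100 ± 3090 CPM in non-injured fish (SD, n = 4 each; -0.22, SE 0.18, adjusted p = 0.42). Troponin I genes were divided in the same way. TNNI2 ENSDARG00000035958 stood at 88.7, 82.5, 99.7 and 61.1 CPM in injured fish, against 0.0593, 0.61, 1.45 and 0.408 CPM in non-injured fish (7.01, SE 0.49, adjusted p = 5.6e-07), while ENSDARG00000013752 averaged 7220 ± 1770 CPM in injured fish and 7390 ± 2780 CPM in non-injured fish (-0.03, adjusted p = 0.95).

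Of the myosin heavy chains, myhz2 rose to 3090, 3400, 2990 and 3320 CPM in injured fish, against 143, 115, 72.4 and 150 CPM in non-injured fish (4.74, SE 0.27, adjusted p = 4e-08). The tandem genes myhz1.1 (4.97, SE 0.42), myhz1.2 (1.68, SE 0.36) and myhz1.3 (2.34, SE 0.50) and the myosin myhb (6.0, SE 0.84) rose with it. The gene with the highest mean CPM of all, the fast myosin myhc4, stood at 105000, 95500, 175000 and 127000 CPM in injured fish and 101000, 205000, 153000 and 89300 CPM in non-injured fish (-0.13, SE 0.30, adjusted p = 0.8). The groups were apart in the first 5 myosins and overlapped in myhc4. Among the actins, ACTA1 ENSDARG00000055618 rose to 5860, 4040, 4080 and 4390 CPM in injured fish, against 210, 223, 210 and 615 CPM in non-injured fish (3.87, SE 0.39). ACTA1 ENSDARG00000036371 (4.23, SE 0.71), ACTC1 ENSDARG00000057911 (3.81, SE 0.68) and actc1a (2.7, SE 0.39) rose as well, and in all 4 of these actin genes non-injured fish 4 was the highest of its group. The actin actc1b did not pass (0.02, SE 0.22, adjusted p = 0.97), and neither did the regulatory light chain MYL11 ENSDARG00000053254 (0.03, SE 0.19, adjusted p = 0.94). With scaling by library size alone both were called higher, actc1b by 0.38 (adjusted p = 0.028) and MYL11 by 0.39 (adjusted p = 0.024). MYOM2, an M-band protein, rose by 0.55 (SE 0.14), mybpha, a myosin binding protein, rose but lost its call without 6 of the fish in turn, and the tropomyosin TPM2 fell (-0.76, SE 0.13). The genes named here from TNNT3 on, other than TNNT3 ENSDARG00000030270, myhz2, myhz1.1, myhc4, ACTA1 ENSDARG00000055618, actc1a, actc1b, MYL11 and TNNI2 ENSDARG00000035958, were picked after their values were seen. Near-identical isoforms share reads, which the counting divided by probability, so single myosin and actin genes are uncertain. The whole list took 31.1, 29.2, 34.4 and 30.1% of all counts in injured fish, against 23.7, 28.2, 25.4 and 21.4% in non-injured fish, while its summed level after TMM scaling overlapped, at 230000 to 388000 CPM in injured fish and 224000 to 416000 CPM in non-injured fish.

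**Figure D2:**
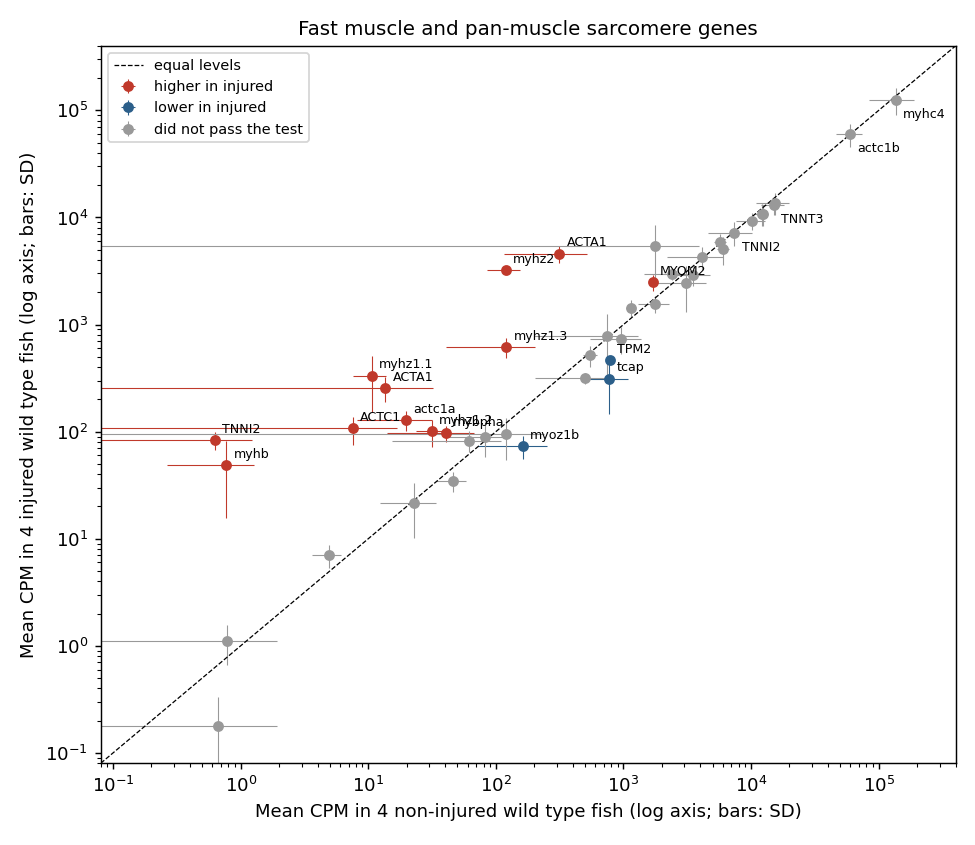
Mean level of the fast and pan-muscle sarcomere genes in 4 injured (vertical) and 4 non-injured wild type fish (horizontal), in CPM after TMM scaling on log axes, with SD bars cut at the axis where they reach it; TNNT3 ENSDARG00000030270, at 0 in non-injured fish, cannot be drawn. Genes that rose sit above the dashed line, from TNNI2 ENSDARG00000035958 at 0.631 CPM to ACTA1 ENSDARG00000055618 at 315 CPM in non-injured fish, with MYOM2 further right at 1700 CPM; myhc4 and actc1b lie by the line at the top right.

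Slow fibre genes were more often lower. Of 20 tested 8 fell and 2, PRDM1 and MYH7, rose, with a median of -0.66. Falls numbered 5 without injured fish 2 and 3 with scaling by library size alone, and 1 rose without injured fish 3 or non-injured fish 2, 3 or 4. The slow troponin I gene tnni1c stood at 79.2, 66.3, 72.8 and 78.1 CPM in injured fish, against 206, 159, 90.6 and 229 CPM in non-injured fish (-1.21, SE 0.23, adjusted p = 0.0017). Slow troponin C, TNNC1, also fell without overlap (-0.89, SE 0.17), as did the slow troponin T TNNT1 (-1.01, SE 0.21; adjusted p = 0.071 with scaling by library size alone). The slow myosin smyhc2 fell by 1.1 on the log2 scale (SE 0.30), overlapping because of non-injured fish 3, and lost its call without injured fish 2 or non-injured fish 4 (adjusted p = 0.054 each). PRDM1, the transcription factor that specifies slow fibres in zebrafish embryos, stood at 4.61, 2.12, 3.21 and 1.31 CPM in injured fish, against 1.25, 0.427, 0.103 and 0.363 CPM in non-injured fish (2.41, SE 0.61, adjusted p = 0.01).

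Under TMM scaling calcium handling genes were called lower more often than all genes tested. Of 33 tested 8 fell (24.2%, against 11.9% of all genes) and 1 rose (3.03%, against 11.8%). Their median was -0.22, which was 0.13 with scaling by library size alone. Falls numbered 4 without injured fish 1 and 5 without injured fish 2, and 3 rose without non-injured fish 1. With the 8 wild type libraries alone 2 fell and 1 rose. With scaling by library size alone 8 rose and 4 fell, so that rises outnumbered falls. Besides atp2a2a, those that fell held the calcium buffers of fast fibres. Parvalbumin pvalb4 stood at 8820, 7700, 14500 and 15000 CPM in injured fish, against 19500, 29000, 29000 and 18800 CPM in non-injured fish (-1.07, SE 0.25, adjusted p = 0.007), and pvalb3 fell by 1.2 on the log2 scale (SE 0.33; adjusted p up to 0.061 without single fish). The calcium channel subunit CACNB1 was the member that rose (0.61, SE 0.17). Of 20 tested stretch and Z-disc genes 3 rose and 1 fell, against 11.8% higher and 11.9% lower among all genes tested. Whether this list differs from all genes was not tested. Those that rose were both ANKRD1 genes and xirp1 ENSDARG00000030722 (1.86, SE 0.58, adjusted p up to 0.082 without single fish). CRYAB ENSDARG00000101380 fell. With scaling by library size alone 6 rose. XIRP2 ENSDARG00000071113, a related Xin repeat protein, differed by 0.05 (SE 0.15, adjusted p = 0.82). Of 30 tested genes of the dystrophin complex and membrane repair 3 rose (MYOF ENSDARG00000006112, ANXA2 and anxa5b) and 2 fell (SSPN and CAVIN1), with the annexin anxa5b at 0.67 (SE 0.14), the caveolar CAVIN1 ENSDARG00000059362 at -0.69 (SE 0.19; adjusted p = 0.27 with scaling by library size alone) and utrophin, utrn, at 0.00 (SE 0.11, adjusted p = 0.99). With single fish left out the rises of this list numbered 1 to 5 and the falls 1 to 3, and with scaling by library size alone 10 rose and 0 fell. Under TMM scaling the shares of the list, 10.0% higher and 6.67% lower, were below those of all genes tested (11.8% and 11.9%).

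Among myogenic transcription factors MYOG and MYF5 rose, and six4a and EYA4 fell. Of 25 tested myogenic transcription factors 7 rose and 3 fell, with a median of -0.04 (0.28 with scaling by library size alone). Among the 7 were TEAD1 and tead1a, which are counted again below with the Yap-Tead genes. Myogenin, MYOG, which drives myoblasts into differentiation, stood at 20.8, 24.8, 28.5 and 34.7 CPM in injured fish, against 7.18, 6.22, 5.63 and 7.08 CPM in non-injured fish (2.06, SE 0.21, adjusted p = 1.4e-05). MYF5, a determination factor of myoblasts, rose by 0.87 (SE 0.17), the partner of these factors TCF12 by 0.50 (SE 0.11), and the inhibitor ID2 by 0.87 (SE 0.23). The satellite cell factor PAX7 ENSDARG00000070818 rose by 0.97 (SE 0.30), at 1.65 to 2.15 CPM in injured fish and 0.671 to 1.32 CPM in non-injured fish, without overlap, but lost its call without 5 of the fish in turn (adjusted p up to 0.077). MYOD1 (-0.39, SE 0.17, adjusted p = 0.11) and MYF6 (-0.35, SE 0.22, adjusted p = 0.27) did not pass. Of those that fell, six4a (-0.85, SE 0.21) and EYA4 (-0.85, SE 0.19) belong to a class that acts with the myogenic factors, and neither passed with scaling by library size alone (adjusted p of 0.078 and 0.076).

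Of 27 tested fusion and adhesion genes 11 rose and 1 fell, with a median of 0.40. Myomaker, MYMK, had 455 counts over the injured fish and 2 counts over the non-injured fish, a ratio of 169 (exact 95% interval 46.6 to 1400, counting error only). It stood at 4.47, 3.84, 6.1 and 4.06 CPM in injured fish, against 0, 0, 0.0516 and 0.0454 CPM in non-injured fish. Its partner mymx changed less, at 4.07, 4.34, 6.76 and 7.44 CPM in injured fish, against 3.44, 3.41, 1.55 and 2.95 CPM in non-injured fish (0.99, SE 0.25, adjusted p = 0.01). Neither gene overlapped between the groups, and mymx was read in all 4 non-injured fish. N-cadherin, CDH2, stood at 57.9, 66.7, 65.1 and 51.5 CPM in injured fish, against 30.2, 21.9, 20.3 and 18.9 CPM in non-injured fish (1.4, SE 0.21). The adhesion molecules NCAM1 ENSDARG00000056181 (1.48, SE 0.24) and vcam1b (0.93, SE 0.16) and the satellite cell receptor MEGF10 (1.04, SE 0.13) rose too, and M-cadherin, CDH15, by 0.55 (SE 0.15; adjusted p = 0.053 without injured fish 3). The adaptor CRKL fell (-0.56, SE 0.11; adjusted p = 0.27 with scaling by library size alone).

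At the neuromuscular synapse the gamma subunit of the acetylcholine receptor rose and several genes of the adult synapse fell. Of 23 tested 4 rose and 5 fell (musk, CHRNB1, ERBB3, LRP4 and ACHE), with a median of -0.22 (0.15 with scaling by library size alone). The gamma subunit CHRNG, which the adult receptor replaces by epsilon, stood at 7.84, 7.1, 12.1 and 4.14 CPM in injured fish, against 1.54, 2.01, 1.76 and 0.953 CPM in non-injured fish (2.32, SE 0.32, adjusted p = 0.00017). The epsilon subunit CHRNE did not pass (-0.39, SE 0.14, adjusted p = 0.062). It stood at 79.2, 80.5, 94.8 and 111 CPM in injured fish, against 115, 107, 113 and 144 CPM in non-injured fish. CHRNE was called lower by DESeq2 (adjusted p = 0.023). By edgeR it was called lower with the replicate number as a block (adjusted p = 0.043) and without injured fish 4 (0.021). The groups were apart in gamma and overlapped in epsilon. Neuregulin, NRG1 (1.82, SE 0.26), agrin, AGRN (1.05, SE 0.21), and the neuregulin receptor erbb3b (0.90, SE 0.23; adjusted p = 0.05 without injured fish 1) rose. The agrin-activated kinase musk fell (-0.89, SE 0.21), with the receptor subunit CHRNB1 ENSDARG00000069660 (-0.54, SE 0.16) and ERBB3 (-0.58, SE 0.16). The falls of this list numbered 1 without injured fish 2, 2 without injured fish 1 or non-injured fish 3, 3 without non-injured fish 2 and 0 with scaling by library size alone.

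Proliferation genes rose in large numbers. Of 47 tested genes of mitosis and the spindle 37 rose, with a median of 2.05, and of 41 genes of DNA replication 21 rose and 1, RPA1, fell, with a median of 0.91. The condensin SMC4 stood at 7.7, 4.91, 4.87 and 3.81 CPM in injured fish, against 0.653, 1.04, 0.568 and 0.227 CPM in non-injured fish (3.12, SE 0.40, adjusted p = 9e-05). The mitotic kinesins kif20a (3.0, SE 0.41) and KIF4A (2.92, SE 0.41), thymidylate synthase TYMS (2.7, SE 0.39), the replication-linked methylation factor UHRF1 (2.17, SE 0.31) and the helicase subunit MCM5 (1.89, SE 0.35) were examples. In none of the 6 did the groups overlap. Without injured fish 1, the fish whose removal lowered the counts most, 33 mitotic and 15 replication genes rose.

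Few genes of protein synthesis passed. Of 74 tested cytosolic ribosomal protein genes 2 fell, among them rplp2 (-0.54, SE 0.14), which did not pass with scaling by library size alone (adjusted p = 0.27). The median of that list was -0.22, and 0.17 with that scaling, where 4 rose and 0 fell. Of 38 ribosome biogenesis genes 3 rose (DKC1, GAR1 and MYC ENSDARG00000045695) and 2 fell (NOB1 and PNO1); the pseudouridine synthase DKC1 rose by 1.07 (SE 0.17). Without single fish 2 to 4 of these rose and 1 to 3 fell, and 11 rose and 0 fell with scaling by library size alone.

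Matrix genes rose across several lists. Of 40 tested collagen chains 24 rose and 1, col15a1b, fell (median 1.28). Of 38 genes of collagen modification and crosslinking 27 rose and 1, mia3, fell (median 0.97), and of 63 matricellular proteins and proteoglycans 30 rose (median 0.57). COL12A1, a fibril-associated collagen, stood at 274, 313, 264 and 211 CPM in injured fish, against 32.9, 41.1, 37.4 and 22 CPM in non-injured fish (2.99, SE 0.22, adjusted p = 5.6e-07). The main fibrillar collagen COL1A2 stood at 3700, 3490, 2900 and 2800 CPM in injured fish, against 1250, 928, 692 and 795 CPM in non-injured fish (1.81, SE 0.18). COL6A3, of the pericellular collagen that surrounds fibres, rose by 1.48 (SE 0.13). In all 3 genes every injured fish lay above every non-injured fish.

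The enzymes that build collagen rose beside the chains. The procollagen protease enhancer PCOLCE2 ENSDARG00000055575 (2.25, SE 0.19), the prolyl isomerase FKBP14 (2.11, SE 0.23), the lysyl oxidase LOXL2 (1.45, SE 0.14) and both SERPINH1 genes, which code for the collagen chaperone Hsp47 (1.40, SE 0.16 and 1.36, SE 0.17), were among them. EFEMP2, an organiser of elastic fibres, stood at 47, 64.9, 61.1 and 43.6 CPM in injured fish, against 7.48, 4.27, 7.02 and 6.08 CPM in non-injured fish (3.12, SE 0.24). The small proteoglycans lumican, LUM (2.87, SE 0.26), and decorin, DCN (1.29, SE 0.15), and the collagen-binding SPARC (0.90, SE 0.18) rose. Fibronectin, picked after its values were seen, is coded by a pair of genes, and both rose: FN1 ENSDARG00000019815 to 566, 498, 507 and 287 CPM in injured fish, against 42.9, 64.1, 157 and 36.8 CPM in non-injured fish (2.63, SE 0.40), and ENSDARG00000006526 by 2.17 (SE 0.25). Non-injured fish 3 was the highest of its group for the first.

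Of 39 tested matrix proteases and inhibitors 19 rose (median 0.88). The membrane proteases MMP14 ENSDARG00000008388 (1.81, SE 0.19) and ENSDARG00000002235 (1.1, SE 0.13) both rose. The metalloprotease mmp11b, picked after its values were seen, had 319 counts over the injured fish and 2 over the non-injured fish, a ratio of 119 (exact 95% interval 32.6 to 985, counting error only). Of 52 genes of folding and export in the endoplasmic reticulum 23 rose (median 0.37), and 35 did with scaling by library size alone. The coat proteins SEC31A (1.45, SE 0.17) and SEC24D (1.06, SE 0.19), which carry procollagen out of the reticulum, and the transcription factor CREB3L1 (1.71, SE 0.25), which drives secretory genes in matrix-forming cells, were examples. Of 22 tested fibroblast markers, several of which are matrix genes already counted, 14 rose, and their summed level was 10400 to 13500 CPM in injured fish and 3000 to 5090 CPM in non-injured fish.

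Cytoskeletal genes rose more often than they fell. Of 30 tested tubulins and intermediate filaments 14 rose and 3 fell (tuba8l2, STMN1 ENSDARG00000033655 and synm), with a median of 0.61. Of 66 actin remodelling genes 17 rose and 3 fell (PXN ENSDARG00000088590, MYL9 ENSDARG00000038123 and tpm4a), with a median of 0.40, and 34 rose and 0 fell with scaling by library size alone. Beta thymosins hold actin monomers. Of these tmsb stood at 18.3, 18.8, 21.6 and 13.9 CPM in injured fish, against 0.178, 0.183, 0 and 0.136 CPM in non-injured fish (7.16, SE 0.40, adjusted p = 4e-08), and tmsb2 rose by 4.68 (SE 0.65). Nestin, nes, the intermediate filament of myoblasts and new fibres, stood at 15.7, 19.2, 20.5 and 17.4 CPM in injured fish, against 1.54, 1.83, 1.81 and 0.998 CPM in non-injured fish (3.56, SE 0.25). The tubulins tubb6 (3.32, SE 0.40) and tuba1b (2.7, SE 0.20), the lamin LMNB1 (1.75, SE 0.20) and the focal adhesion protein zyxin, ZYX (1.34, SE 0.19), rose. The cytoskeletal tropomyosin TPM4 rose by 1.93 (SE 0.25), and tpm4a fell (-0.68, SE 0.12; 0.2 was its adjusted p with scaling by library size alone).

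Genes of energy metabolism fell across several lists. Of 40 tested complex I subunits 37 fell (median -1.07), and of 48 subunits of complexes II to V 39 fell and 5 rose (median -0.91). NDUFB4 stood at 60.6, 61.9, 88.3 and 107 CPM in injured fish, against 174, 207, 177 and 225 CPM in non-injured fish (-1.3, SE 0.18, adjusted p = 0.00018). The complex III core protein UQCRC2 (-1.25, SE 0.20) and the subunits NDUFA2 (-1.22, SE 0.18) and NDUFA1 (-1.06, SE 0.17) fell likewise. The catalytic subunit of cytochrome c oxidase, MT-CO1, which the mitochondrial genome codes, fell to 20000, 19700, 19500 and 36000 CPM in injured fish, against 56700, 45900, 38500 and 64700 CPM in non-injured fish (-1.11, SE 0.23, adjusted p = 0.003). Injured fish 4 was the highest of the injured fish in each of these 5 genes, and no gene overlapped. With scaling by library size alone 28 complex I genes and 20 of the others fell.

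The 5 subunit genes that rose all belong to cytochrome c oxidase, and each has a partner for the same subunit that fell. Of the subunit 6A genes, cox6a1 stood at 58.5, 43.1, 45.9 and 37.8 CPM in injured fish, against 14.8, 10.2, 13 and 12.8 CPM in non-injured fish (1.87, SE 0.18, adjusted p = 6.2e-06). Its partner COX6A1 ENSDARG00000054588 fell to 215, 217, 344 and 423 CPM in injured fish, against 670, 754, 394 and 987 CPM in non-injured fish (-1.23, SE 0.26). Subunit 6B had cox6b1 up (1.65, SE 0.40) and cox6b2 down (-0.82, SE 0.20), and subunit 5B had COX5B ENSDARG00000015978 up (1.04, SE 0.19) and ENSDARG00000068738 down (-0.98, SE 0.25). For subunit 7A, COX7A2 ENSDARG00000053217 rose by 0.63 (SE 0.22) and cox7a1 fell (-1.08, SE 0.20), and for subunit 8, cox8a rose by 0.55 (SE 0.18) and cox8b fell (-0.80, SE 0.24). In mammals the 7A1 form is the one of heart and skeletal muscle and the 7A2 form the one found in most tissues. Of the subunit 4 genes, COX4I1 fell (-1.11, SE 0.29), and COX4I2 did not pass (0.25, SE 0.15, adjusted p = 0.25). With scaling by library size alone COX4I2 was called higher (0.65, adjusted p = 0.015). The calls of COX7A2 (adjusted p up to 0.12), cox8a (up to 0.093) and cox8b (up to 0.088) were lost without some single fish, and with scaling by library size alone COX4I1, COX5B ENSDARG00000068738, cox6b2 and cox8b lost theirs. These pairs, other than cox6a1, were picked after their values were seen. The groups were apart in cox6a1, cox6b1, cox6b2, cox7a1, COX7A2 and COX5B ENSDARG00000015978 and overlapped in the other named members. Without single fish 3 to 5 of the list rose. With the 8 wild type libraries alone COX4I1, COX5B ENSDARG00000068738, cox6b2, cox8a and cox8b lost their calls (adjusted p from 0.05 to 0.11).

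**Figure D3:**
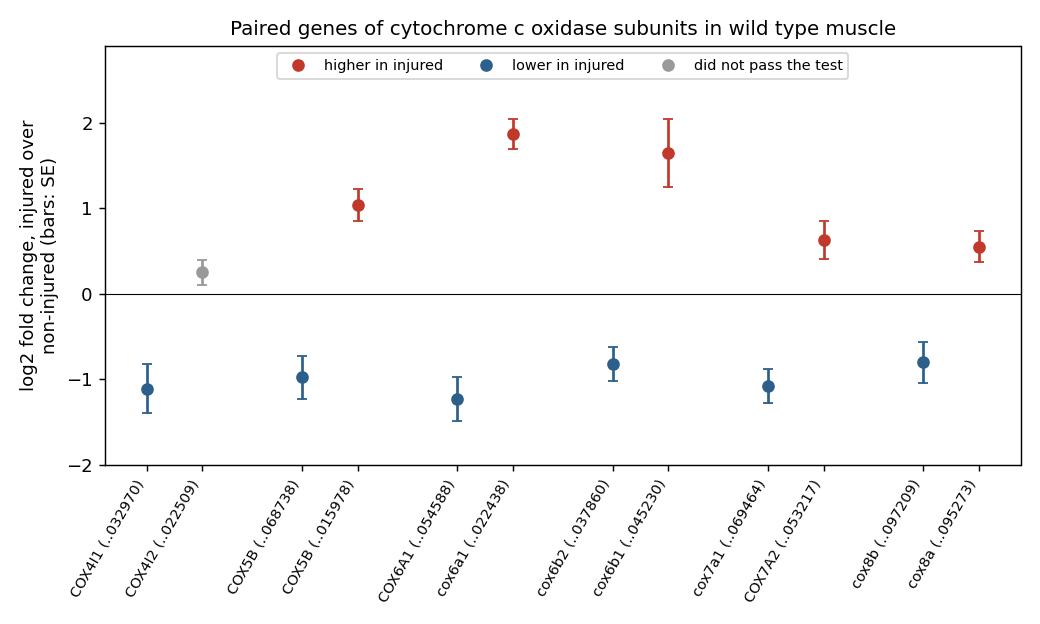
Log2 fold change of injured over non-injured wild type fish with its SE for the paired genes of 6 cytochrome c oxidase subunits, named by symbol and the last digits of the ID. In 5 of the 6 pairs one gene passed the test upward and the other downward, from 1.87 and -1.23 for subunit 6A to 0.55 and -0.80 for subunit 8. With the 8 wild type libraries alone COX5B ENSDARG00000068738, cox6b2, cox8a and cox8b did not pass.

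Fuel genes fell as well. Of 54 tested genes of the TCA cycle and fatty acid oxidation 30 fell (median -0.81), a count that was 18 without injured fish 2, 19 without injured fish 1 or non-injured fish 4, and 14 with scaling by library size alone, where 2 rose. Of 53 genes of glycolysis and glycogen 23 fell and 1, PYGB, the brain form of glycogen phosphorylase, rose (median -0.75), and with that scaling 16 fell and 4 rose. Malate dehydrogenase, MDH2, stood at 831, 786, 1130 and 1230 CPM in injured fish, against 2100, 2740, 2540 and 2150 CPM in non-injured fish (-1.26, SE 0.17). The medium-chain acyl-CoA dehydrogenase ACADM (-1.41, SE 0.25), glycerol phosphate dehydrogenase GPD1 ENSDARG00000043701 (-1.76, SE 0.26) and GAPDH (-1.28, SE 0.25) fell without overlap.

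Creatine and adenylate kinase genes were divided. Of 17 tested 5 fell (ckmb, both CKMT2 genes, AK1 and ADSS1) and 4 rose (among them both CKB genes and GATM), with a median of -0.59. Brain-type creatine kinase CKB ENSDARG00000069752 stood at 88.4, 92.7, 77.6 and 62.2 CPM in injured fish, against 16.9, 13.2, 18.3 and 12.2 CPM in non-injured fish (2.41, SE 0.17, adjusted p = 5.5e-07). The muscle-type ckmb stood at 24000, 23100, 35800 and 25300 CPM in injured fish, against 32800, 73300, 67900 and 35000 CPM in non-injured fish (-0.95, SE 0.26, adjusted p = 0.015; up to 0.053 without single fish), and ckma did not pass (-0.78, SE 0.28, adjusted p = 0.054; 0.024 without non-injured fish 1, 0.025 without non-injured fish 4 and 0.036 without injured fish 3). Others that fell were the mitochondrial CKMT2 ENSDARG00000039929 (-0.91, SE 0.21), adenylate kinase AK1 (-1.02, SE 0.21) and adenylosuccinate synthase ADSS1 (-1.5, SE 0.26). The nucleoside diphosphate kinase nme2b.2, one of the 8 genes with the highest mean CPM, did not pass (-0.84, SE 0.30, adjusted p = 0.055). Its adjusted p was 0.014 without non-injured fish 4 and 0.028 without injured fish 3. By DESeq2 both ckma and nme2b.2 were called lower (adjusted p = 0.019 each). Without injured fish 1, 1 member of the list rose and 3 fell; 3 fell without injured fish 2, and 2 rose without injured fish 2 or 3 or non-injured fish 1 or 4. Scaled by library size alone, 5 rose and 4 fell.

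Under TMM scaling genes of protein breakdown and catabolic signalling fell more often than they rose. Of 49 tested atrophy and Foxo target genes 17 fell and 4 rose (median -0.54). The PI3 kinase inhibitor PIK3IP1 stood at 15.2, 12.3, 18.4 and 15.3 CPM in injured fish, against 39.5, 78.3, 103 and 66.7 CPM in non-injured fish (-2.23, SE 0.29, adjusted p = 0.00012). The stress-induced SESN1 (-1.8, SE 0.33), the autophagy protein MAP1LC3A (-1.0, SE 0.19) and the deubiquitinase USP2 (-1.03, SE 0.20) fell. The ubiquitin ligase FBXO30, which is needed for full atrophy in mice, rose by 1.62 (SE 0.21), and so did the cathepsin ctsla (1.22, SE 0.19). Picked after their values were seen, the other 2 that rose were sesn2 (2.33, SE 0.47) and the muscle ring finger ligase trim63a (1.72, SE 0.43), and the transcription factor foxo3b fell (-1.63, SE 0.35). Of the sestrins, SESN1 fell and sesn2 rose. With scaling by library size alone 7 of this list fell and 5 rose.

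Of 40 tested proteasome subunits 21 fell and 1, PSMD11 ENSDARG00000060150, rose (median -0.36). PSMD11 ENSDARG00000005134 stood at 24.5, 28.6, 30.6 and 29.5 CPM in injured fish, against 43.2, 42.7, 41.5 and 45.5 CPM in non-injured fish (-0.61, SE 0.10, adjusted p = 0.00056), and PSMC5 fell by 0.50 on the log2 scale (SE 0.11). None of the 21 falls passed with scaling by library size alone, where the median became 0.02. Of 55 lysosome and V-ATPase genes 9 rose and 6 fell (median 0.07). These shares, 16.4% and 10.9%, were near the 11.8% and 11.9% of all genes tested. Without non-injured fish 3, 18 rose and 3 fell, without injured fish 1, 5 rose, and with scaling by library size alone 18 rose and 0 fell. Cathepsin K, CTSK, stood at 98.7, 93.4, 90 and 39.3 CPM in injured fish, against 16.8, 22.8, 26.7 and 12.8 CPM in non-injured fish (2.02, SE 0.26), and CTSA rose by 1.37 (SE 0.18).

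Of 51 tested heat shock and chaperone genes 12 fell and 4 rose (HSPA8 ENSDARG00000068992, both SERPINH1 genes and CHORDC1 ENSDARG00000017067), with a median of -0.27 (0.05 with scaling by library size alone). Falls numbered 6 without non-injured fish 3, and with the 8 wild type libraries alone 3 fell and 3 rose. With scaling by library size alone 9 rose and 4 fell, so that rises outnumbered falls. Of the genes for the constitutive chaperone HSPA8, ENSDARG00000068992 rose to 1180, 948, 915 and 652 CPM in injured fish, against 387, 246, 467 and 222 CPM in non-injured fish (1.48, SE 0.25), and ENSDARG00000037403, at low counts, fell (-1.88, SE 0.32). The muscle small heat shock protein HSPB3 fell (-1.16, SE 0.21). The lens and muscle small heat shock protein CRYAB ENSDARG00000101380 was called lower (adjusted p = 0.0096), at 0, 0, 0 and 0.0423 CPM in injured fish, against 5.16, 3.9, 0 and 2.45 CPM in non-injured fish. The related hspb15 was also called lower (adjusted p = 0.0096), at 0.0363, 0, 0 and 0 CPM in injured fish, against 2.79, 2.13, 0.671 and 0.0454 CPM in non-injured fish. Both were near 0 in injured fish and uneven among non-injured fish. Neither was called without injured fish 1 and non-injured fish 1 together (adjusted p = 0.055 for CRYAB and 0.06 for hspb15). With the 8 wild type libraries alone CRYAB was not called.

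Of 37 tested redox genes 7 fell and 4 rose (txnb, GPX7, HMOX1 and prdx6), with a median of -0.19 (0.13 with scaling by library size alone). Falls numbered 4 without injured fish 2. With that scaling 7 rose and 1 fell, so that rises outnumbered falls. The thioredoxin txnb had the smallest p of all genes. It stood at 48.3, 49, 47.3 and 31.2 CPM in injured fish, against 0.949, 1.04, 0.981 and 0.499 CPM in non-injured fish (5.67, SE 0.27, adjusted p = 1.1e-08). The peroxidase of the endoplasmic reticulum GPX7 (2.37, SE 0.31) and heme oxygenase HMOX1 (1.54, SE 0.23) rose, and the mitochondrial SOD2 fell (-0.81, SE 0.19; adjusted p = 0.1 with scaling by library size alone).

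Immune cell markers were uneven among fish. Of 33 tested macrophage markers 11 rose and 1, timd4, fell (median 0.85). Rises numbered 22 without non-injured fish 3, 22 with scaling by library size alone, and 7 without injured fish 1, injured fish 2 or non-injured fish 4. The list's mean log2 CPM was 3.73, 3.66, 3.21 and 2.73 in injured fish, against 2.08, 2.51, 3.46 and 1.78 in non-injured fish, so non-injured fish 3 lay within the injured range. Its summed level was 482 to 1020 CPM in injured fish and 296 to 1390 CPM in non-injured fish, and 2 of the markers had 0 counts in all 8 fish. The myeloid transcription factor IRF8 was free of overlap, at 25.1, 16.3, 16 and 9.81 CPM in injured fish, against 2.67, 4.21, 4.7 and 3.54 CPM in non-injured fish (2.15, SE 0.24, adjusted p = 3.3e-05). The myeloid factor spi1a (1.25, SE 0.24), the oxidase subunit cybb (1.44, SE 0.34) and the antigen presentation chaperone cd74a (0.76, SE 0.19) rose.

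Of 16 tested neutrophil markers 5 rose (MMP9, NCF1, CSF3R, itln1 and LECT2 ENSDARG00000090889; median 1.21). Rises numbered 1 without injured fish 1, 2 without non-injured fish 4 and 3 without injured fish 2 or non-injured fish 2. Their mean log2 CPM was 3.24, 2.92, 1.73 and 1.22 in injured fish, against 1.24, 1.21, 1.55 and 0.7 in non-injured fish, so the groups overlapped. The receptor CSF3R did not overlap, at 6.06, 8.18, 4.77 and 4.23 CPM in injured fish, against 2.14, 2.32, 2.53 and 1.04 CPM in non-injured fish (1.54, SE 0.30, adjusted p = 0.0023). The protease MMP9, at 54, 13.4, 12 and 4.86 CPM in injured fish and 8.84, 0.975, 2.37 and 2.13 CPM in non-injured fish, and the intelectin itln1, at 54.2, 1.22, 0.803 and 0.254 CPM in injured fish and 0, 0.488, 0 and 0 CPM in non-injured fish, were highest in injured fish 1 (adjusted p = 0.11 for MMP9 and 0.15 for itln1 without it). Lysozyme, lyz, did not pass (2.09, SE 0.84, adjusted p = 0.087). It was called higher without injured fish 4 (adjusted p = 0.041), with scaling by library size alone (0.047) and by DESeq2. Of 14 tested lymphocyte markers 1 rose (7.14%, against 11.8% of all genes tested; median 0.15), the recombination gene RAG2 (3.04, SE 0.53). It stood at 0.327 to 0.761 CPM in injured fish and 0.0454 to 0.061 CPM in non-injured fish, so its fold rests on very few counts. With the 8 wild type libraries alone 0 lymphocyte markers rose. Of 24 genes of MHC and antigen presentation 4 rose (mhc1lia, cd74a, cd74b and CALR) and 2 fell (b2m and ifi30b), with a median of 0.81, and 0 fell without injured fish 1, 2 or 4 or non-injured fish 1 or 4. With scaling by library size alone 7 neutrophil and 2 lymphocyte markers rose, and 6 genes of MHC and antigen presentation rose and 0 fell.

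Of 54 tested chemokines, cytokines and their receptors 14 rose and 2, il10rb and csf1b, fell (median 0.29), and among the rises were ligands and receptors of the gp130 and leptin class. The leptin lepa had 73 counts over the injured fish and 0 over the non-injured fish, at least 18.1-fold higher against a floor of 3 counts over the group. Its paralog lepb had 233 counts over the injured fish and 4 over the non-injured fish, a ratio of 43.4 (exact 95% interval 16.7 to 160, counting error only). The feedback inhibitor of this pathway, SOCS3 ENSDARG00000026611, stood at 47.3, 31.2, 34.9 and 21.7 CPM in injured fish, against 6.41, 5.79, 7.23 and 5.22 CPM in non-injured fish (2.46, SE 0.22, adjusted p = 4.5e-06). The receptors lifrb (1.61, SE 0.20) and crlf1a (1.33, SE 0.21) rose, as did the ligand clcf1 (1.65, SE 0.32) and the shared receptor il6st (0.59, SE 0.14), both picked after their values were seen. Of 24 tested interferon response genes 6 rose (median 0.42), among them the guanylate binding protein gbp2 (1.51, SE 0.28). These rises numbered 3 without injured fish 1 or injured fish 3, 10 without non-injured fish 1 and 9 with scaling by library size alone.

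**Figure D4:**
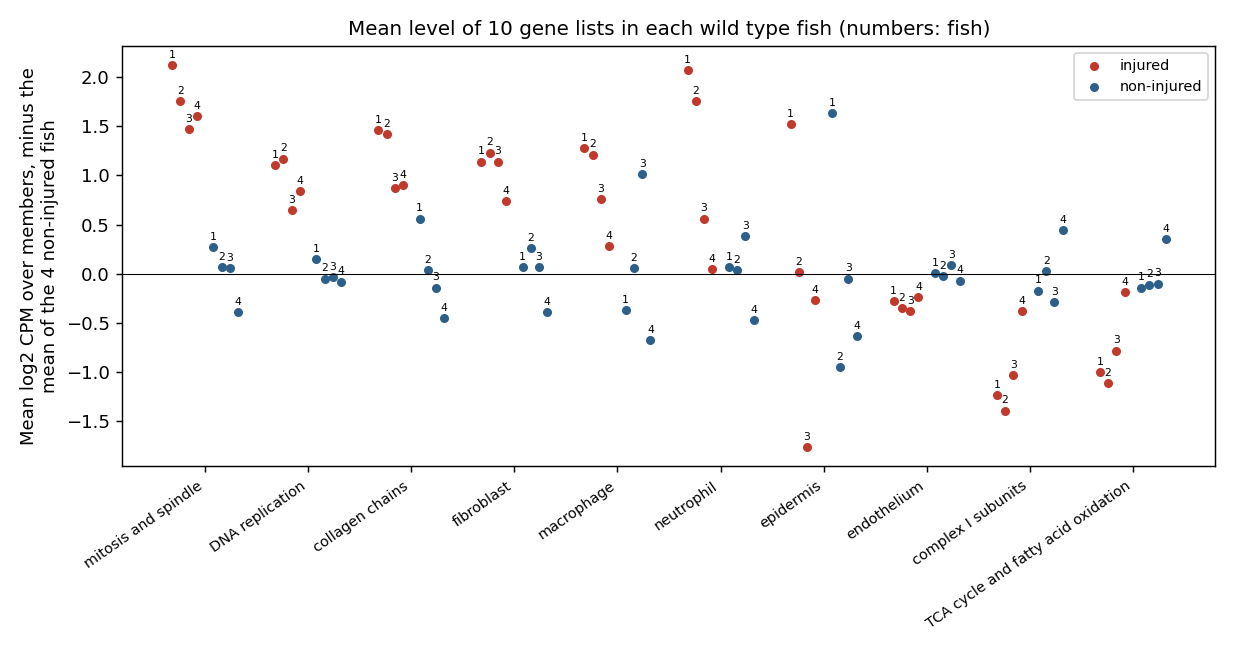
Mean log2 CPM over the members of 10 gene lists in each wild type fish, minus the mean of the 4 non-injured fish, with injured fish left of non-injured fish and the fish number beside each point. Injured fish lie above non-injured fish in mitosis, replication, collagen and fibroblast genes and below them in endothelial, complex I and TCA cycle genes; before the subtraction, macrophage genes average 2.73 in injured fish 4 and 3.46 in non-injured fish 3, and epidermis genes 4.45 in injured fish 1 and 4.56 in non-injured fish 1, so both lists overlap, as do neutrophil genes.

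Of 37 tested AP-1 and immediate early genes 9 rose and 5 fell (EGR2, NR4A2 ENSDARG00000044532, SIK1, KLF4 and klf2a), with a median of 0.17. Falls numbered 3 without injured fish 2 or with scaling by library size alone, and 7 without non-injured fish 3. Rises numbered 6 without injured fish 2, non-injured fish 1 or non-injured fish 2, and 12 without non-injured fish 3. They numbered 13 with scaling by library size alone and 5 with the 8 wild type libraries alone. The Fos family factor FOSL1 stood at 3.89, 3.66, 5.25 and 2.83 CPM in injured fish, against 0.534, 0.549, 1.19 and 0.318 CPM in non-injured fish (2.58, SE 0.44). Its relative FOSL2 (2.44, SE 0.41) and its partner JUNB ENSDARG00000104773 (1.88, SE 0.31) rose, and the Krüppel-like factors KLF4 (-1.3, SE 0.19) and klf2a (-0.91, SE 0.15) fell.

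In the signalling lists both rises and falls were found. Of all genes tested 11.8% were called higher and 11.9% lower. The shares were 21.2% and 21.2% for the Igf and growth hormone axis. For Tgf-beta, Bmp and activin signalling they were 14.0% and 14.0%, near those of all genes. Of 33 tested genes of the Igf and growth hormone axis 7 rose and 7 fell (median -0.29, and 0.06 with scaling by library size alone), with the growth factor igf2b at 1.37 (SE 0.22), the kinase MTOR at 0.39 (SE 0.09) and the kinase AKT2 at -0.78 (SE 0.20); falls numbered 3 without injured fish 1 or injured fish 2, 4 without injured fish 3 or non-injured fish 2 and 2 with that scaling, where 7 rose. Of 57 genes of Tgf-beta, Bmp and activin signalling 8 rose and 8 fell (median -0.10), and falls numbered 4 without injured fish 1 or injured fish 2 and 5 without non-injured fish 4. With scaling by library size alone 19 rose and 1 fell, and the median was 0.26. Of the type II receptor genes, TGFBR2 ENSDARG00000059363 stood at 17.5, 10.8, 9.88 and 9.89 CPM in injured fish, against 3.32, 2.99, 2.94 and 3.95 CPM in non-injured fish (1.86, SE 0.22), and ENSDARG00000034541 at 33.9 to 36.9 CPM in injured fish and 48.9 to 64.2 CPM in non-injured fish (-0.57, SE 0.11; adjusted p = 0.36 with scaling by library size alone). The secreted follistatin-like FSTL1 ENSDARG00000039576 rose by 1.8 (SE 0.17), and the pathway's inhibitor SMAD7 fell (-0.95, SE 0.16; adjusted p = 0.064 with scaling by library size alone).

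Of 68 genes of Wnt, Notch and Fgf signalling 12 rose and 4 fell (LFNG, LRP6, dll4 and HES6 ENSDARG00000019335), with a median of 0.05, and 1 fell without injured fish 1, injured fish 2 or non-injured fish 2. Scaled by library size alone, 15 rose and 0 fell. The Notch ligand DLL1 ENSDARG00000010791 had 92 counts over the injured fish and 4 over the non-injured fish, a ratio of 17.1 (exact 95% interval 6.46 to 64.2, counting error only). The growth factor FGF18 ENSDARG00000088048 (1.43, SE 0.23), the secreted Wnt antagonist SFRP1 ENSDARG00000057678 (1.29, SE 0.18) and beta-catenin, CTNNB1 (0.77, SE 0.13), rose, and the Notch-modifying LFNG fell (-0.62, SE 0.12; adjusted p = 0.36 with scaling by library size alone). Of 27 tested Yap-Tead targets and partners 5 rose (both ANKRD1 genes, AXL, TEAD1 and tead1a) and 4 fell (AMOTL2, LATS2, FJX1 and vgll2b), with a median of -0.05 (0.3 with scaling by library size alone), and 3 rose without injured fish 2, non-injured fish 1 or non-injured fish 3. With that scaling 6 rose and 0 fell. Under TMM scaling the shares of this list were 18.5% higher and 14.8% lower, against 11.8% and 11.9% of all genes tested. The kinase LATS2 (-0.47, SE 0.10) and the angiomotin AMOTL2 (-0.82, SE 0.17) fell, and neither passed with scaling by library size alone (adjusted p = 0.59 for LATS2 and 0.062 for AMOTL2). Of 33 tested clock genes 9 fell and 6 rose (median -0.18, and 0.19 with scaling by library size alone), and falls numbered 5 without injured fish 2. With that scaling 8 rose and 4 fell, so that rises outnumbered falls. The activators BMAL1 ENSDARG00000006791 (1.5, SE 0.25) and ENSDARG00000035732 (1.77, SE 0.32) and the repressor NFIL3 (2.17, SE 0.36) rose, and the repressors BHLHE40 (-0.83, SE 0.15) and BHLHE41 (-0.88, SE 0.16) fell. The labels give no time of day for sampling.

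Among markers of other resident cells, those of vessels and nerve were more often called lower than higher under TMM scaling. With scaling by library size alone their calls were evenly divided. The list medians were then -0.11 for endothelium and -0.42 for nerve and Schwann cells, against 0.34 for all genes. Of 36 tested endothelial markers 12 fell and 1, S1PR1, rose (median -0.45), and their summed level was 427 to 525 CPM in injured fish and 611 to 710 CPM in non-injured fish. The endothelial lectin clec14a stood at 9.19, 12.3, 11.6 and 13.3 CPM in injured fish, against 30, 25.1, 24.2 and 23.5 CPM in non-injured fish, and the Vegf receptor flt1 (-0.96, SE 0.18) and the junction protein pecam1a fell (-0.67, SE 0.15; adjusted p = 0.2 with scaling by library size alone). Falls numbered 7 without injured fish 2, and with scaling by library size alone 3 fell and 3 rose. Of 33 nerve and Schwann cell markers 8 fell and 3 rose (erbb3b, NGFR ENSDARG00000088708 and cntn1a), with a median of -0.77 and a sum of 609 to 827 CPM in injured fish and 1020 to 1690 CPM in non-injured fish. Falls numbered 3 without injured fish 2 and rises 1 without injured fish 1, and with scaling by library size alone 3 fell and 3 rose. The myelin genes prx (-1.2, SE 0.23) and plp1b (-1.04, SE 0.23) fell, and the neurotrophin receptor NGFR ENSDARG00000088708, which repair Schwann cells are known to express, rose by 1.81 (SE 0.42). Of 23 tested mural and smooth muscle markers 4 rose (TAGLN ENSDARG00000045408, CSPG4, DES ENSDARG00000058656 and rgs5b) and 3 fell (TAGLN ENSDARG00000033466, RGS5 and LMOD1 ENSDARG00000077261), with a median of -0.12 (0.3 with scaling by library size alone). Transgelin, an actin binding protein of smooth muscle, was divided (TAGLN ENSDARG00000045408 at 0.74, SE 0.16, and ENSDARG00000033466 at -0.68, SE 0.15) and the pericyte proteoglycan CSPG4 rose by 0.78 (SE 0.15). Rises numbered 2 without injured fish 1, and falls 1 without injured fish 2, 5 without injured fish 4 and 0 with scaling by library size alone.

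Of 36 tested epidermis markers 0 passed by edgeR in either direction, 1 had an unadjusted p below 0.05 and 1 was called by DESeq2, both higher. Their median was -0.22 (0.16 with scaling by library size alone), and their summed level was 1130 to 2830 CPM in injured fish and 1160 to 3480 CPM in non-injured fish. Injured fish 1 and non-injured fish 1 were the highest in it; without both, 1364 genes rose and 1347 fell. Of 20 tested erythrocyte genes 1 rose (median 0.26), the heme enzyme UROD (0.54, SE 0.14), with a sum of 693 to 1710 CPM in injured fish and 562 to 952 CPM in non-injured fish. Of 23 bone and scale genes 2 rose (median 0.49), CTSK and SPARC, and 6 rose without non-injured fish 1. Of 18 adipocyte genes 4 fell (LPIN1, RBP4, fabp4a and ADIPOQ ENSDARG00000100086) and 1, lepa, rose (median -0.64), with the lipid phosphatase LPIN1 at -2.02 (SE 0.38). Falls numbered 2 without injured fish 2 or injured fish 3 and 7 without non-injured fish 2. Of 13 pigment cell genes 2, pmela and OCA2, fell and 1, csf1ra, rose (median -0.81), with the melanosome transporter OCA2 at -1.96 (SE 0.37), and 4 fell without injured fish 1. With scaling by library size alone rises numbered 4 for bone and scale, 2 for erythrocytes and 1 for epidermis, and falls 2 for adipocytes and 1 for pigment cells. Under TMM scaling, shares called higher were 5.0% for erythrocyte, 8.7% for bone and scale, 5.56% for adipocyte and 7.69% for pigment cell genes. All were below the 11.8% of all genes tested. Shares called lower were 22.2% for adipocyte and 15.4% for pigment cell genes, against 11.9% of all genes. Some rises were counted in more than 1 list. CTSK and SPARC stand above among lysosome and matrix genes and lepa among cytokines. The pigment cell gene csf1ra and the neutrophil gene NCF1 are also macrophage list members. Such rises are not separate evidence for each cell type. The part of these cell types in the results above was not tested.

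Counts in the direction left out so far were 0 by edgeR. Genes higher numbered 0 for ribosomal proteins and complex I, with 0 at an unadjusted p below 0.05 and 0 by DESeq2, and 0 for the TCA cycle and fatty acid oxidation, with 2 at an unadjusted p below 0.05 and 1 by DESeq2. Genes lower numbered 0 for mitosis, matrix proteases, lymphocytes and erythrocytes, with 0 at an unadjusted p below 0.05 and 0 by DESeq2. They also numbered 0 for the following lists. An unadjusted p below 0.05 was found for 3 matricellular, 3 interferon response, 1 fibroblast and 1 neutrophil gene, with 0 calls by DESeq2, and for 3 endoplasmic reticulum genes and 1 bone gene, with 2 and 1 calls by DESeq2. To complete counts of 5 or fewer, 58 genes are named above without values, chosen after their values were seen. Of these 45 lost their call without at least 1 wild type fish, and the rest were il10rb, csf1b, NOB1, RPA1, GAR1, PYGB, CALR, cd74b, NR4A2, tuba8l2, STMN1, vgll2b and MYL9.

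**Figure D5:**
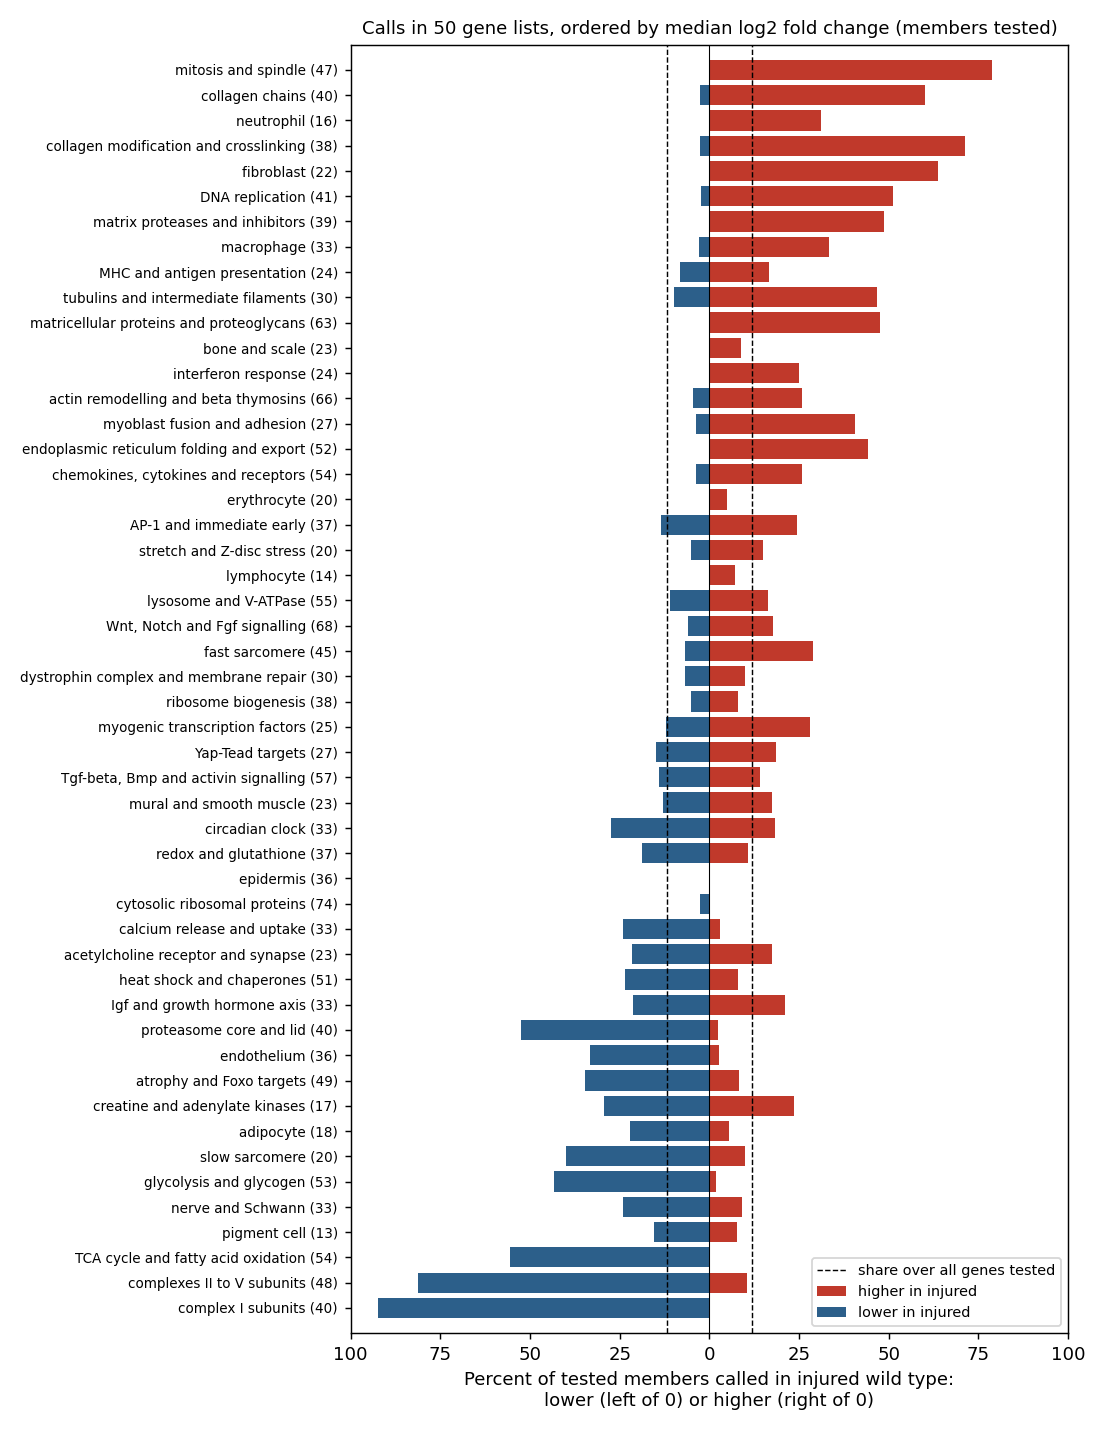
Share of tested members of each of the 50 gene lists called higher (right) or lower (left) in injured wild type fish, in percent, ordered by the list's median log2 fold change, with dashed lines at the shares of all genes tested, 11.8% higher and 11.9% lower. Mitosis (37 of 47 higher) stands at the top and complex I (37 of 40 lower) at the bottom; epidermis has no bar.

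The injury response of wild type was set against that of the ankrd1a line by the interaction term, which asks if the log2 fold change differs between the genotypes. It passed for 10 genes (0.0606%), of which 7 were higher in wild type and 3 lower, and 1207 genes had an unadjusted p below 0.05; DESeq2 called 66. DGLUCY, a mitochondrial enzyme of D-glutamate breakdown, rose by 2.0 (SE 0.18) in wild type, at 17.2, 16.5, 19 and 12.3 CPM in injured fish, against 3.09, 4.39, 3.98 and 4.76 CPM in non-injured fish. Its change in mutants was -0.20 (SE 0.17), a difference of 2.2 (SE 0.25, adjusted p = 0.0025). CCDC92 fell in wild type (-1.41, SE 0.31) and had a change of 2.18 (SE 0.29) in mutants, a difference of -3.59 (SE 0.42, adjusted p = 0.0025). TRHDE ENSDARG00000109358, a peptidase, changed by 0.68 (SE 0.13) in wild type and 2.1 (SE 0.14) in mutants (difference -1.42, adjusted p = 0.0074). The calcineurin regulator rcan1a did not pass in wild type (0.22, SE 0.17, adjusted p = 0.4) and changed by 1.97 (SE 0.18) in mutants (difference -1.75, adjusted p = 0.0099). SERPINH1 ENSDARG00000019949 was at the threshold (difference 1.31, SE 0.23). For the other genes named above the interaction did not pass, which does not show that the genotypes responded alike.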

How the data were processed

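Poly A RNA of skeletal muscle from 1 fish per library was sequenced from stranded libraries, as the labels' protocols state, in 4 groups of 4 fish. The authors deposited 1 table of estimated counts for 32520 genes and 16 libraries, of which 94.29% of values were whole (91.13% of those above 0). The submitters' processing notes name the trimmer fastp 0.23.4, the aligner STAR (2.7.0 and 2.7.10) and the counter RSEM 1.3.3, which divides ambiguous reads among paralogs by probability. Build, annotation and strand setting: not given in the sources used here. For this reason overlapping and antisense genes cannot be told apart with certainty.

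Estimated counts were rounded to whole numbers. edgeR 4.0.16 (R 4.3.3) was run on all 16 libraries with 1 mean per group (12 residual degrees of freedom), TMM scaling, a filter on low counts (minimum count 10, minimum total 15), which kept 16514 genes, and a robust quasi-likelihood fit. The biological coefficient of variation was 31.3%. Genes were called at a Benjamini-Hochberg adjusted p under 0.05 over all genes tested, and SE is the log2 fold change over the square root of F. The p-values test a difference of group means against the spread between fish, which was estimated over all 16 libraries. In counts simulated on the 16514 genes, 36 of 100 genes changed 2-fold and 80 of 100 changed 4-fold were called for injury in wild type, and 8 of 124 calls were on unchanged genes. No other genes were changed in the simulation, while 23.8% of genes were called in the data. Its rates therefore cannot be carried over to the data.

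Symbols came from a table of gene IDs, which named 29201 genes and left 3319 without a symbol; 1719 symbols are shared by several genes, whose IDs are printed. The 50 lists held 1768 entries, of which 1597 matched, giving 2002 genes. Members and lists were chosen with earlier results of these data known. Named genes were both ANKRD1 genes; the 12 rises and 12 falls with the smallest p among genes without overlap whose mean log2 CPM reached 3; the 8 genes with the highest mean CPM; up to 6 called members of each list by p (3 most highly expressed where none was called); any member of a list of at most 20 tested genes, or of the myogenic factor, fusion, synapse or actin remodelling lists, and paralogs sharing a named symbol; and up to 8 genes by p for the difference between genotypes. Exceptions are said where they stand. Some genes that the rule names are not reported here. Intervals and floors cover counting error only, since reads carry no molecular identifiers. Alternatives were DESeq2 1.42.0, RLE size factors, library size only, no filter, the 8 wild type libraries alone, the replicate number as a block, each wild type fish left out, and, chosen after seeing the data, leaving out the pair of fish highest in epidermis markers.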

Additional observations from a re-analysis of the deposited data

Results flagged for a closer look

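In 556 groups of 4 fish (2 groups for each named gene), 39 held a fish whose gap to the nearest other was large against the group's range. Chance flags about 1 in 20 groups. Injured fish 4 made up 10 of them and non-injured fish 4 made up 7.

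Injured fish 4 stood high in respiratory genes. MT-CO1 was 36000 CPM in it and 19500 to 20000 CPM in the other injured fish, COX4I1 641 CPM against 238 to 303 CPM, cox8b 229 CPM against 103 to 118 CPM, and UQCRC2 226 CPM against 124 to 140 CPM. It was also high in CAVIN1 (62.3 CPM) and mhc1lia (2.37 CPM), and held the only counts of CRYAB ENSDARG00000101380 among injured fish (0.0423 CPM). It was low in CTSK (39.3 CPM, against 90 to 98.7 CPM), COX4I2 (10.6 CPM) and txnb (31.2 CPM, against 47.3 to 49.0 CPM).

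The other injured fish stood apart in fewer genes. Fish 1 was high in itln1 (54.2 CPM, against 0.254 to 1.22 CPM), TGFBR2 ENSDARG00000059363 (17.5 CPM), tead1a (2.18 CPM) and hspb15 (0.0363 CPM). Fish 2 was low in TNNC1 (177 CPM) and high in SERPINH1 ENSDARG00000019949 (83.1 CPM). Fish 3 was high in ckma (27700 CPM), AK1 (2450 CPM) and LRP4 (6.52 CPM).

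Non-injured fish 4 was high in 3 sarcomeric actin genes, with ACTA1 ENSDARG00000055618 at 615 CPM against 210 to 223 CPM in the other non-injured fish, ACTA1 ENSDARG00000036371 at 41.6 CPM against 3.5 to 4.65 CPM and ACTC1 ENSDARG00000057911 at 21.5 CPM against 1.46 to 3.74 CPM. It was also high in CFAP298 (17.4 CPM), HSPB3 (19.6 CPM) and SMAD7 (8.17 CPM) and low in txnb (0.499 CPM). Non-injured fish 3 was high in FOSL2 (9.81 CPM), NCF1 (2.32 CPM, against 0.237 to 0.499 CPM), fabp4a (398 CPM, against 126 to 158 CPM), TGFBR2 ENSDARG00000034541 (64.2 CPM), PSMD11 ENSDARG00000060150 (7.74 CPM) and lepb (0.207 CPM). Non-injured fish 2 was high in col16a1 (62.9 CPM), AGRN (12.6 CPM) and itln1 (0.488 CPM), and low in anxa5b (22.0 CPM) and UHRF1 (0.732 CPM). Non-injured fish 1 was low in gstr (126 CPM) and high in erbb3b (3.68 CPM).

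The injury response differed between wild type and ankrd1a mutants, by the interaction term, in DGLUCY (2.2, log2, wild type minus mutant), CCDC92 (-3.59), TRHDE ENSDARG00000109358 (-1.42), rcan1a (-1.75) and, at the threshold, SERPINH1 ENSDARG00000019949 (1.31).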

How the results depend on the processing

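Of 278 genes named, 263 were called. Of these 203 were called in all fits that left out 1 wild type fish and 164 under all 15 alternatives, and none changed direction. Many were chosen by their p in the same fish, so these counts are not independent support. The counts of 1956 genes higher and 1971 lower became 1408 and 1157 with the 8 wild type libraries alone, and 3673 and 537 with library size as the only scaling. That scaling does not set the bulk of genes equal, and the median log2 fold change was 0.34 with it. In the other fits with all 16 libraries the counts lay between 1606 and 2342. List counts also moved with the 8 wild type libraries alone. Falls then numbered 24 in place of 39 for complexes II to V, 19 in place of 30 for the TCA cycle and fatty acid oxidation, and 13 in place of 23 for glycolysis. Rises numbered 6 in place of 11 for macrophage and 1 in place of 5 for neutrophil markers. Mitosis rises moved less, to 36 from 37, and complex I falls to 31 from 37. Leaving out 1 wild type fish gave 1401 to 2030 higher and 1189 to 2175 lower genes, with fewest lower without injured fish 2. The total of genes called in the difference between genotypes was 10, against 66 by DESeq2, 6 with library size only and 5 to 12 in fits without 1 wild type fish; these are totals, not counts of shared genes, and the cause was not tested. The labels give no pairing, and replicate numbers were not taken as pairs, since not every same-numbered pair correlated above 0.1: deviations from the group means of same-numbered fish correlated at 0.21, 0.1, 0.05 and 0.34, and 3 of 4 injured fish matched their own number best, a hint from the data and not the design. With the replicate block 1841 genes were higher, 1812 lower and 4 differed between genotypes. Depth limits genes at a few counts, such as MYMK and DLL1, whose folds span wide intervals, and lepa, which has a lower bound only.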
